A study of Homo sapiens with 20 samples.

Results

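The SOX genes of glioma stem cells were described by the chromatin contacts at their start sites. The 8 genes were SOX2, SOX4, SOX5, SOX6, SOX8, SOX9, SOX11 and SOX21. A contact was an anchor pair, that is, a pair of stretches of about 5 kb on 1 chromosome that were joined more often than a background model gave. An anchor pair belonged to a SOX gene when either anchor lay within 3 kb of one of the gene's annotated start sites on hg19. This rule used positions only and no measured value. It found 325 anchor pairs of the 572000 distinct pairs listed in the 4 cell lines.

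Hi-C, which ligates and sequences DNA ends that lie close together in the nucleus, was performed with 2 biological replicates in each of 4 human glioblastoma (GBM) lines. H4 and 42MGBA are parental lines with naturally occurring truncating mutations of STAG2, a cohesin subunit. Gene editing had corrected the mutant allele in their derivatives H4 88-1 and 42MGBA 53-1, and each genotype of a system is therefore represented by 1 line. The authors pooled the replicates and listed the 300000 strongest pairs of each line with their loop strength, an enrichment signal on a linear scale, so that no spread between replicates could be computed and all comparisons are descriptions of 1 pooled value per line. H4 and H4 88-1 are called the H4 system, and 42MGBA and 42MGBA 53-1 the 42MGBA system. The lists hold no expression values, and neither SOX mRNA levels nor cell identity markers were analysed here.

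SOX proteins are transcription factors that bind DNA through an HMG box. SOX2 maintains neural stem cells, and SOX21 is a repressor that counteracts it. SOX4 and SOX11 act in progenitors on the way to neurons, SOX5 and SOX6 lack an activation domain of their own and work with other SOX proteins, and SOX8 and SOX9 act in glia, with SOX9 also needed in cartilage. Several of these genes lie in gene deserts with enhancers far away. Cohesin forms contacts of this kind by extruding DNA until it meets CTCF bound at its motif.

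Only 4 of the 8 genes had a listed pair. SOX6 had 142, SOX9 had 104, SOX2 had 47 and SOX4 had 32. SOX5, SOX8, SOX11 and SOX21 had none in any line. Of 20149 protein-coding genes, 50.3% had no listed pair either, so that a count of 4 without a pair among 8 is near the background. Among the 10019 protein-coding genes with a pair the median number was 16. SOX6 had more pairs than 96.3% of these genes, SOX9 more than 93.5%, SOX2 more than 79.6% and SOX4 more than 69.5%. Neighbouring anchors often carry the same contact, so that these pairs are not independent contacts. Joining far anchors within 10 kb of each other gave 3 contact groups for SOX2, 3 for SOX4, 1 for SOX6 and 6 for SOX9.

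The start-site anchors are the ends that all pairs of a gene share. CAGGGGGC, a common form of the CTCF core motif, was searched in them on both strands, because CTCF sites are where cohesin contacts usually end. The letters occurred in 5 of the 10 SOX start-site anchors, in 17 of the 168 far anchors (10.1%) and in 15.2% of all 128561 listed anchors. No far anchor of the strongest pair of a gene in any line held them. The share among anchors at the start sites of other genes was not computed, so that 5 of 10 has no like background. The 5 matches are shown 5′ to 3′ on the motif's strand, from hg19, with the motif letters in capitals.
SOX2, chr3:181427476-181427515, plus strand: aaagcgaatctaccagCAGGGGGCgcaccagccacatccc
SOX4, chr6:21588653-21588692, plus strand: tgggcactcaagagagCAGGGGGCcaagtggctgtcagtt
SOX6, chr11:16628774-16628813, minus strand: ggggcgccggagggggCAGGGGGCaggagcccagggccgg
SOX6, chr11:16626643-16626682, minus strand: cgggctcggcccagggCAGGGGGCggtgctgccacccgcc
SOX9, chr17:70117495-70117534, minus strand: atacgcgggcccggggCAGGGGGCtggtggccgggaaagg
The SOX2 match lay upstream of the gene, the SOX4 match upstream in the anchor next to the start, and the SOX6 and SOX9 matches inside the genes. A match is not evidence that CTCF was bound.

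The promoters of SOX2 and SOX4 are shown because they lie in start-site anchors, and because these genes held pairs that were called between systems (SOX2) or between 42MGBA and its corrected derivative (SOX4). RefSeq promoters (GRCh38, 250 bases before to 50 after the start, plus strand) matched 5 of the 8 genes, namely SOX2, SOX4, SOX5, SOX6 and SOX21. CG dinucleotides are in capitals.
SOX2 promoter, GRCh38 chr3:181711675-181711974: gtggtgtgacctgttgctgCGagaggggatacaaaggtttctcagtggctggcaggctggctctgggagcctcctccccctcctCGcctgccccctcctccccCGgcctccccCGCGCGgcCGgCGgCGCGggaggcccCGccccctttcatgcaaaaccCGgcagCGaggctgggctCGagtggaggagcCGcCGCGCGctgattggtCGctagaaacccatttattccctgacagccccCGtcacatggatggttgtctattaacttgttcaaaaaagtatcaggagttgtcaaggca
SOX4 promoter, GRCh38 chr6:21593501-21593800: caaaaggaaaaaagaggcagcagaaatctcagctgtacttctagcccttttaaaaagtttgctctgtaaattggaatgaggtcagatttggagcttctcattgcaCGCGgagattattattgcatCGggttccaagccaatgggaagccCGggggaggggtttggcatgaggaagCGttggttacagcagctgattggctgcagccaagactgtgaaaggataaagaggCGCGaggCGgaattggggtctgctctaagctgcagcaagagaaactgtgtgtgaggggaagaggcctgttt
The SOX2 promoter holds 20 CG dinucleotides and 63.3% G and C, and the SOX4 promoter 8 and 49.3%. The median of the 35116 promoters in that table is 14 CG dinucleotides and 58.7% G and C. At least as many CG dinucleotides as in SOX2 are found in 41.2% of the promoters, and as in SOX4 in 60.7%.

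The SOX pairs were listed mostly in the H4 system. The H4 list held 284 SOX pairs and the H4 88-1 list 209, against 60 in the 42MGBA list and 41 in the 42MGBA 53-1 list. Of the 325 pairs, 258 (79.4%) were listed in the H4 system only, beside 30.8% of all listed pairs. Pairs of the 42MGBA system only numbered 12 (3.69%, beside 32.4% of all pairs), and 55 pairs (16.9%) were listed in both systems, beside 36.8%. Every listed SOX2 and SOX6 pair belonged to the H4 system. Counted by gene, 20.5% of protein-coding genes with a pair had pairs in the H4 system only and 14.6% in the 42MGBA system only. By STAG2 genotype, 111 SOX pairs (34.2%) were listed in STAG2-mutant lines only, beside 21.3% of all pairs. Another 32 (9.85%) were listed in STAG2-corrected lines only, beside 22.8%. The 21.3% and 22.8% cover pairs of every size, and no such share was computed among pairs as long as the SOX pairs. Typical SOX pairs exceeded typical listed pairs in length, and STAG2-mutant lists held longer pairs in general (sizes below). Whether size accounts for these shares was not tested. Of the 111, 60 were SOX6 pairs from 1 contact group, and SOX6 had none in STAG2-corrected lines only. SOX9 had 21 and 23 in the same order, SOX2 14 and 8, and SOX4 16 and 1. A further 32 pairs (9.85%), 28 of SOX9 and 4 of SOX4, were listed in all 4 lines, beside 19.3% of all pairs. A pair that is absent from a list fell below the lowest listed strength, which lay at 4.14 (H4), 4.44 (H4 88-1), 4.49 (42MGBA) or 4.28 (42MGBA 53-1), and need not be absent from the cells.

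**Figure D1:**
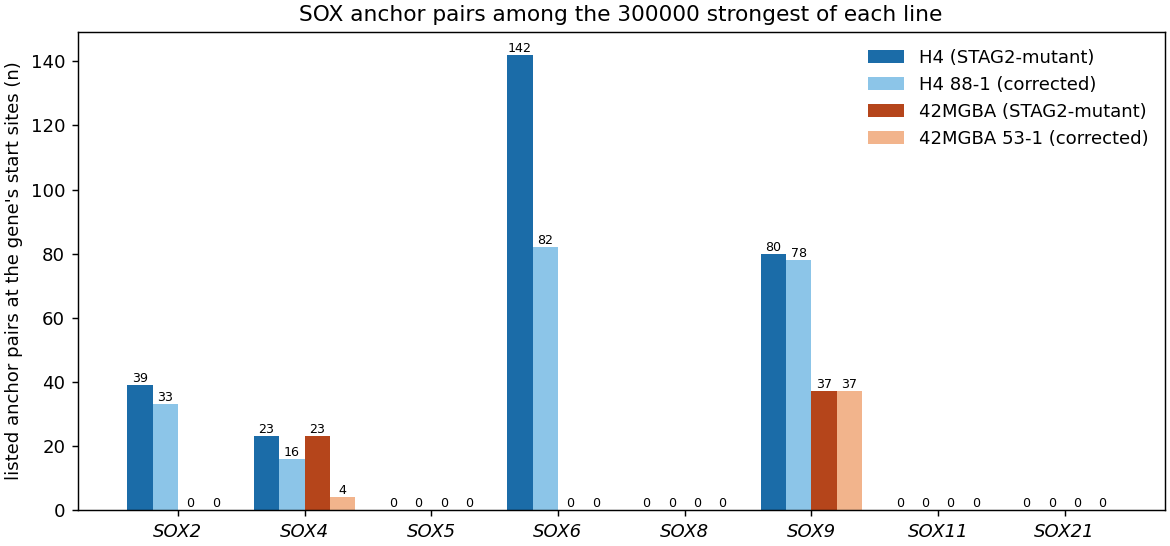
Bars give the number of listed anchor pairs (vertical axis) at the start sites of each SOX gene (horizontal axis) in each of the 4 lines, with the number printed above each bar. SOX6 has 142 pairs in H4 and 82 in H4 88-1 and none in the 42MGBA lines, SOX9 has 37 to 80 in every line, and 4 genes have none.

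The SOX pairs were long. Sizes, given as the bases between the facing ends of the anchors, ran from 258 to 1482 kb. Their median went from 761 kb in H4 to 720 kb in H4 88-1, and from 670 kb in 42MGBA to 642 kb in 42MGBA 53-1. The medians of all listed pairs were 343, 307, 302 and 252 kb in the same order, and those of pairs at protein-coding start sites were 292, 270, 262 and 225 kb. In each system the median of the SOX pairs was lower in the STAG2-corrected line, as was that of all pairs. By gene, the median from H4 to H4 88-1 went from 537 to 547 kb for SOX2 and from 714 to 711 kb for SOX4. It went from 813 to 801 kb for SOX6 and from 647 to 422 kb for SOX9. From 42MGBA to 42MGBA 53-1 it went from 1009 to 866 kb for SOX4 and from 642 to 637 kb for SOX9.

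SOX2 (ENSG00000181449.4_10, chr3:181429713-181432224, plus strand) had the strongest pair of any of the 8 genes. This pair joined the anchor over the start (chr3:181426615-181431424) to chr3:181973390-181978321, 542 kb downstream, where no gene is annotated. Its strength of 12.4 in H4 ranked 4556 and its strength of 13.2 in H4 88-1 ranked 3921 among the 300000 listed pairs. It was absent from both 42MGBA lists, so that it was at least 2.76-fold stronger in H4 than in 42MGBA and at least 3.08-fold stronger in H4 88-1 than in 42MGBA 53-1. Around it lay a group of 31 pairs with far anchors from chr3:181920492 to chr3:182007633, all 31 listed in H4 and 21 in H4 88-1. Their strengths fell off on both sides of the strongest anchor. A second group of 8 pairs, 887 to 907 kb downstream, was listed in H4 88-1 only and reached a strength of 6.21. The farthest group at 959 to 977 kb held 8 pairs and reached 5.79 in H4 and 5.72 in H4 88-1. The start-site anchors also cover start sites of SOX2-OT, the long non-coding RNA gene that contains SOX2, and of ENSG00000289435, and anchors of 5 kb do not tell these starts apart.

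SOX6 (ENSG00000110693.19_16, chr11:15987995-16761138, minus strand) had the most pairs, and all 142 formed 1 contact group. The near anchors lay at 2 internal start sites of the gene, at chr11:16627538 and chr11:16629274, and not at its annotated 5′ end. A start of C11orf58 lay within 3 kb of 2 of the 3 near anchors. The far anchors spanned 311 kb, from chr11:15645618 to chr11:15956443, past the 3′ end of SOX6, a stretch that includes LINC02682. All 142 pairs were listed in H4 and 82 of them in H4 88-1. In H4 the strengths peaked at 3 far anchors that were the highest within 50 kb on either side. These lay 754, 837 and 954 kb from the near anchor and reached 10.2, 9.36 and 9.31. In H4 88-1 there were 2 such peaks, 10.5 at 784 kb and 8.07 at 958 kb. Neither 42MGBA line had a listed anchor within 500 kb of a SOX6 start site.

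SOX9 (ENSG00000125398.8_8, chr17:70117161-70122557, plus strand) was the only gene of the 8 with more than 30 pairs in each line. It had 80 pairs in H4, 78 in H4 88-1 and 37 in each 42MGBA line. A group of 35 pairs reached upstream to chr17:69421934-69508595, 603 to 690 kb away, where no gene is annotated. It had 30 listed pairs in H4, 29 in H4 88-1, 27 for 42MGBA and 24 for 42MGBA 53-1, and its highest strengths were 8.90, 7.03, 7.56 and 6.55. A group of 42 pairs reached downstream to LINC00511, a long non-coding RNA gene, at chr17:70414130-70550848, 293 to 425 kb away. It had 26, 38, 10 and 13 pairs in the same order of lines, with highest strengths of 7.96, 9.14, 6.62 and 5.75. H4 88-1 was thus the one line in which the strongest SOX9 pair lay downstream and not upstream.

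Further SOX9 contacts were listed in the H4 system only. A group of 13 pairs at CASC17 lay 988 to 1027 kb upstream and reached 5.95 in H4 and 6.32 in H4 88-1. A group of 7 pairs 1338 to 1357 kb upstream and a group of 4 pairs 1472 to 1482 kb upstream were listed in H4 alone, at strengths of up to 5.10 and 4.58. A group of 3 pairs 258 to 268 kb downstream was listed in H4 88-1 alone, at up to 5.06. Some of the upstream groups were also joined to each other. Between the CASC17 group and the group at 603 to 690 kb, 67 pairs were listed, 66 of them in H4 and 36 in H4 88-1. Between the CASC17 group and the group at 1338 to 1357 kb there were 26 pairs, 26 in H4 and 20 in H4 88-1. Neither 42MGBA list held any pair of these 2 sets. Between the groups at 1338 to 1357 kb and at 603 to 690 kb, 15 pairs were listed, 15 in H4 and 1 in H4 88-1. Between the group at 1472 to 1482 kb and the CASC17 group there were 3, in H4 alone. No listed pair joined the group at 1472 to 1482 kb to the group at 1338 to 1357 kb or to that at 603 to 690 kb.

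SOX4 (ENSG00000124766.7_7, chr6:21593982-21598850, plus strand) and SOX9 were the genes with pairs in the 42MGBA system, and SOX4 lost most of its listed pairs in the corrected derivative. In 42MGBA it had 23 pairs and in 42MGBA 53-1 it had 4, whereas H4 had 23 of its pairs and H4 88-1 had 16. A group of 13 pairs, 1004 to 1033 kb upstream, ended inside CDKAL1 at chr6:20549270-20583143, with 1 edge of the group within 3 kb of an annotated start of that gene, and its highest strengths were 9.07 in 42MGBA and 4.81 in 42MGBA 53-1, with 6.40 in H4 and 5.97 in H4 88-1. A group of 11 pairs, 695 to 719 kb upstream, ended farther inside CDKAL1 and reached 7.75, 4.63, 6.91 and 5.64 in the same order. A group of 8 pairs, 336 to 350 kb downstream at CASC15, a long non-coding RNA gene, was listed in the H4 system only, at up to 5.51 in H4 and 5.20 in H4 88-1.

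**Figure D2:**
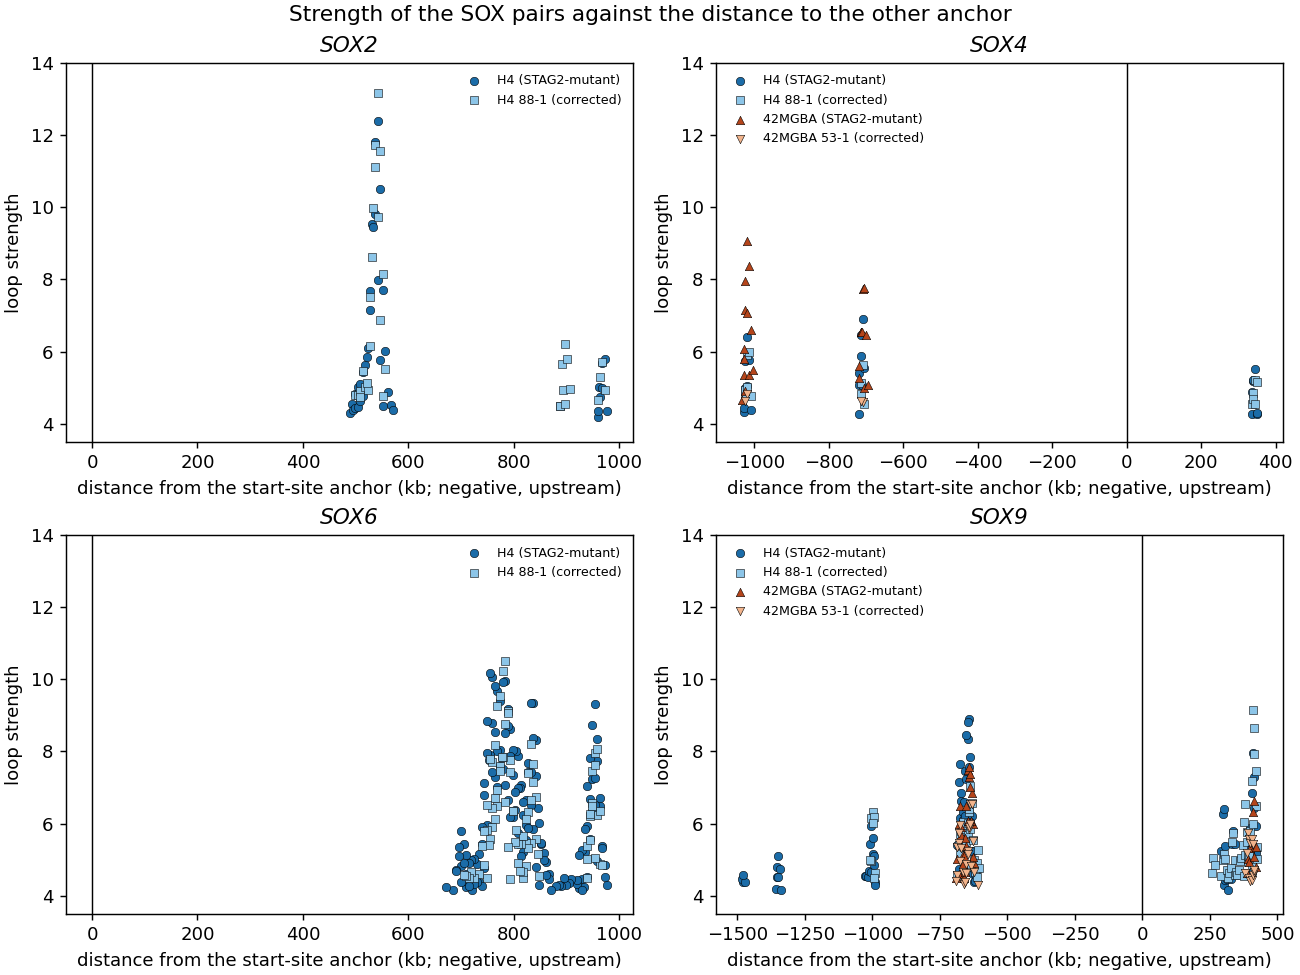
Each point is 1 listed anchor pair, with its loop strength (vertical axis) against the distance in kb from the start-site anchor to the other anchor, negative upstream of the gene, in panels for SOX2, SOX4, SOX6 and SOX9 and with the line given by colour and symbol. SOX2 peaks 542 kb downstream in both H4 lines, the SOX4 points of 42MGBA 53-1 stay at or below 4.81, and SOX9 has all 4 lines in its upstream group 603 to 690 kb away.

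The 4 genes without a pair were not alike in their surroundings. SOX11 (chr2:5832516-5841517) had no listed anchor within 1000 kb in any line, the nearest lying 1182 to 1201 kb away. SOX21 (chr13:95361876-95364799) had its nearest anchor at 446 to 466 kb in every line. SOX8 (chr16:1031770-1036979) had it at 62.3 to 114 kb and was spanned by 9 pairs of H4, 32 of H4 88-1, 5 of 42MGBA and 4 of 42MGBA 53-1. SOX5 (chr12:23682438-24715478) had an anchor 26.5 kb from a start site in both H4 lines, but in 42MGBA and 42MGBA 53-1 its nearest anchor was 423 and 687 kb away. In these 2 lines the same measure was 1002 and 1391 kb for SOX2 and 797 and 1541 kb for SOX6. The absence of SOX2 and SOX6 from the 42MGBA lists therefore covered a wider stretch than the start-site anchors. Whether copy number or the state of these stretches differs between the lines was not tested.

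**Figure D3:**
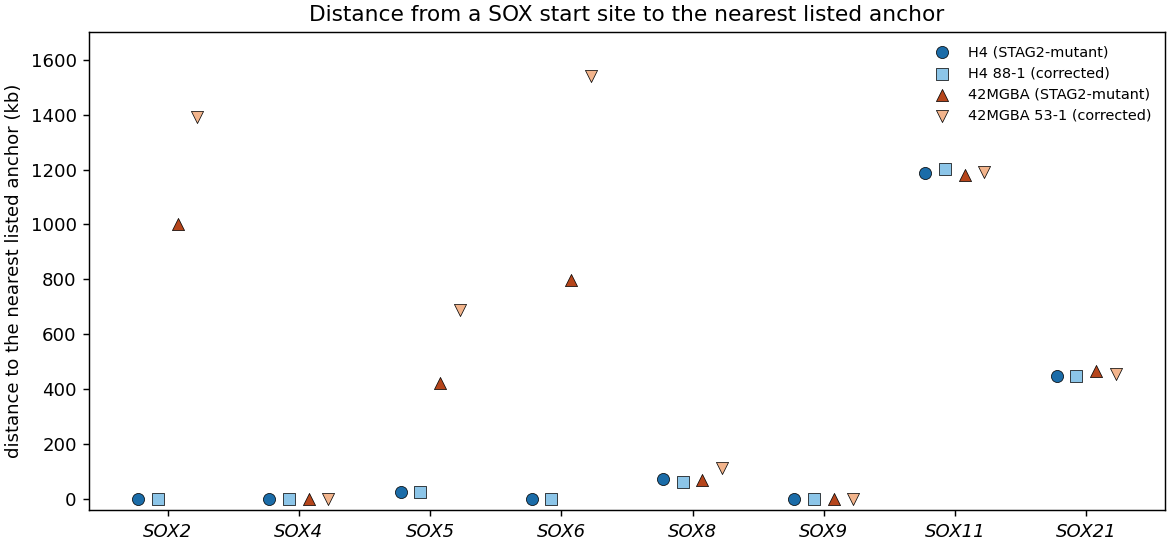
Points give the distance in kb (vertical axis) from the nearest start site of each SOX gene (horizontal axis) to the nearest listed anchor, for each of the 4 lines. SOX2, SOX5 and SOX6 lie far higher in the 42MGBA lines, whereas SOX11 is at 1182 to 1201 kb and SOX21 at 446 to 466 kb in every line.

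To ask which SOX pairs differed with STAG2 status, the 100000 strongest pairs of both lines of a system were merged and fitted by a regression through the origin. A pair was called when the z-score of its residual passed a two-sided 0.05 cutoff. No SOX pair was called stronger in a STAG2-corrected line. In the H4 system 126 SOX pairs were in the merged set. None was called stronger in H4 88-1, beside 1.94% of all 129476 merged pairs, and 2 (1.59%) were called stronger in H4, beside 2.17%. Both counts are near the background. When the 200000 strongest pairs of each line were merged, 14 of 213 SOX pairs were called stronger in H4 (6.57%, at SOX6 and SOX9), beside 2.60% of all pairs, and again none in H4 88-1. The SOX6 pairs form 1 contact group, and many pairs of this larger set entered through H4 alone, where they were high. Such pairs could be called in only 1 direction, so that this share adds little to the listing. In the size range of the SOX pairs, 2.87% of all pairs in the merge of 100000 were called stronger in H4. In the 42MGBA system 23 SOX pairs were in the merged set. None was called stronger in 42MGBA 53-1, beside 1.61% of all 131211 merged pairs, and 2 (8.70%) were called stronger in 42MGBA, beside 2.45%. These 2 pairs share a near anchor and have adjoining far anchors, and so amount to 1 contact. They are of SOX4, whose 12 merged pairs all entered through 42MGBA alone. In the size range of the SOX pairs, 3.65% of all merged pairs were called stronger in 42MGBA.

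The 2 called pairs of the 42MGBA system joined SOX4 to anchors inside CDKAL1, a gene of tRNA modification, with no annotated start within 3 kb. The stronger of them, 1018 kb in size, went from a strength of 9.07 in 42MGBA to 4.81 in 42MGBA 53-1, a 0.531-fold ratio with a z-score of -2.21. The same pair stood at 6.40 in H4 and at 5.89 in H4 88-1, and it was not called there (z-score -0.52). The other pair, 1014 kb in size, fell from 8.36 to below the lowest listed strength, at most a 0.511-fold ratio (z-score -2.15). Of the 23 SOX4 pairs listed in the 42MGBA system, 19 were absent from the 42MGBA 53-1 list. The ratios of these 19 had to be below 1, because the lowest strength of the 42MGBA list (4.49) lies above that of the 42MGBA 53-1 list (4.28). The 4 pairs listed in both lines were all lower in 42MGBA 53-1, with a median log2 ratio of -0.77, and with the absent pairs at the lowest strength the median over the 23 was -0.50. The median log2 ratio was -0.08 over all pairs of the 42MGBA system, -0.18 on chromosome 6 and -0.18 among pairs of like size. When the score was the log2 ratio and its z-score was taken within bins of like size, neither pair was called. When 200000 pairs of each line were merged, 5 of 48 SOX pairs were called, all of SOX4 (10.4%, beside 2.94% of all pairs). The SOX4 pairs of that larger set were all among the 200000 strongest of 42MGBA, where they were high. Neighbouring pairs can also carry the same contact, so that this share adds little to the listing.

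The 2 called pairs of the H4 system joined SOX9 to its upstream group 603 to 690 kb away. They share a near anchor and have adjoining far anchors, and so amount to a single contact. Both entered the merged set through H4 alone, where they were high. One went from 8.81 in H4 to 5.73 in H4 88-1, a 0.651-fold ratio (z-score -2.08), and the other from 8.44 to 5.48, a 0.649-fold ratio (z-score -2.01). The first pair also had a lower strength in the corrected line of the other system, 5.15 in 42MGBA 53-1 against 7.49 in 42MGBA, where it was not called (z-score -1.11). Neither H4 pair was called when log2 ratios were scored within bins of like size.

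The merged sets were filled unequally by the lines, since 121 SOX pairs were among the 100000 strongest of H4 and 64 among those of H4 88-1, and 22 and 6 among those of 42MGBA and 42MGBA 53-1. Many SOX pairs thus entered through the STAG2-mutant line alone, where they were high, and the share of pairs on either side of the regression line is not given for that reason.

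**Figure D4:**
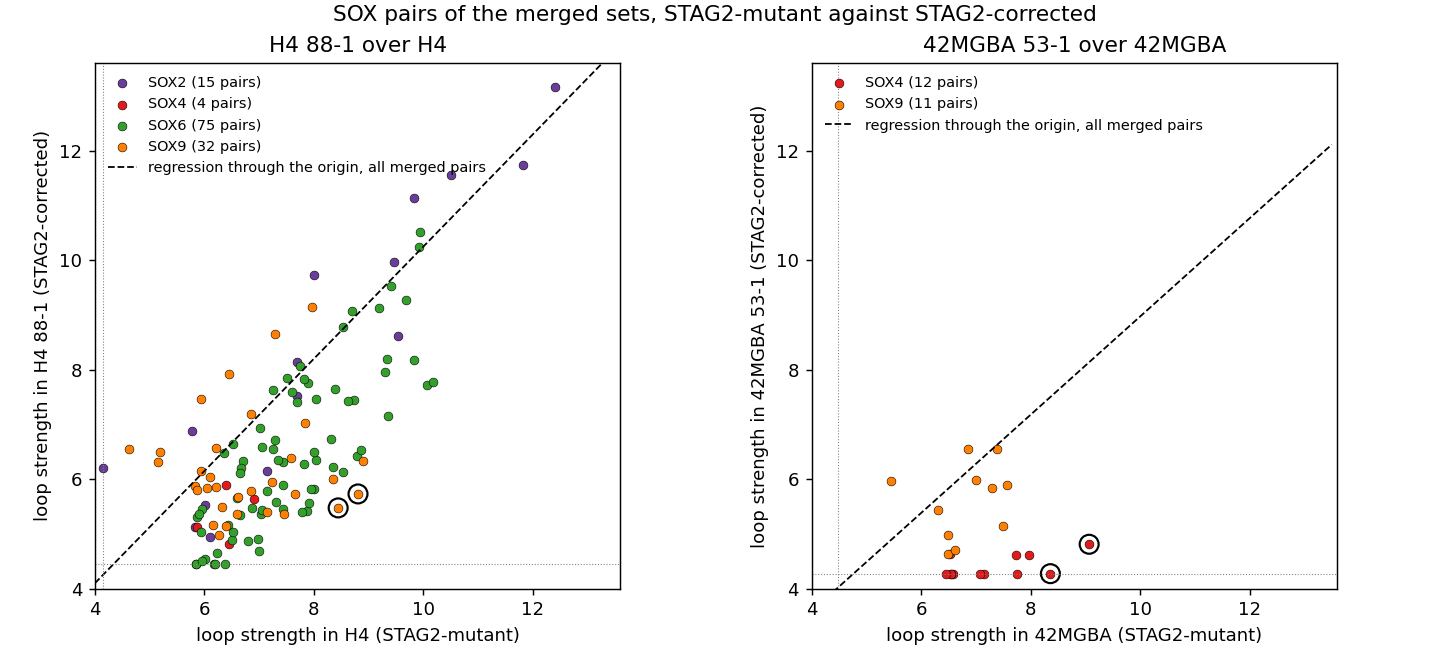
Each point is 1 SOX pair of the merged set, with its loop strength in the STAG2-mutant line (horizontal axis) and in the STAG2-corrected line (vertical axis), in a panel for each system and coloured by gene. The dashed line is the regression through the origin over all merged pairs, dotted lines mark the lowest listed strengths, at which absent pairs are drawn, and circles mark the 2 called pairs of each system, which all lie below the line.

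Gene by gene, SOX2 and SOX9 pairs went both ways between H4 and H4 88-1, and most SOX6 pairs listed in both lines were lower in H4 88-1. The median log2 ratio of H4 88-1 over H4 was 0.02 for the 47 SOX2 pairs, -0.09 for 24 SOX4 pairs, -0.14 for 142 SOX6 pairs and 0.02 for 100 SOX9 pairs, beside 0.09 for all pairs of the H4 system. Among pairs of like size it was 0.06 for SOX2, 0.05 for SOX4, -0.02 for SOX6 and 0.05 for SOX9. Single pairs ranged from -0.30 to 0.58 at SOX2 and from -0.62 to 0.55 at SOX9. Of the 82 SOX6 pairs listed in both H4 lines, 11 were higher in H4 88-1, and their median log2 ratio was -0.22. The strongest SOX6 pair of H4 went from 10.2 in H4 to 7.78 in H4 88-1, and the strongest of H4 88-1 from 9.94 to 10.5, so that the direction was not the same along the SOX6 group.

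In the H4 system the medians of the largest upstream and the largest downstream group of SOX9 lay on opposite sides of no change. Of the 26 upstream pairs 603 to 690 kb away that were listed in both H4 lines, 6 were higher in H4 88-1, with a median ratio of 0.851-fold. Of the 24 downstream pairs at LINC00511 that were listed in both, 15 were higher in H4 88-1, with a median ratio of 1.05-fold. The CASC17 group is also upstream but did not go the way of the larger upstream group. Of its 8 pairs listed in both H4 lines, 6 were higher in H4 88-1, with a median ratio of 1.06-fold. The strongest downstream pair, 410 kb in size, went from 7.96 in H4 to 9.14 in H4 88-1, and from 6.31 in 42MGBA to 5.44 in 42MGBA 53-1. In the 42MGBA system 3 of 22 upstream pairs listed in both lines were higher in 42MGBA 53-1 (median 0.908-fold), and 5 of 8 downstream pairs (median 1.02-fold). The median log2 ratio over all 44 SOX9 pairs of the 42MGBA system was -0.12. The difference between the 2 largest groups has no replicate check and does not stand for all upstream contacts. These groups also differ in size. In the H4 system the median log2 ratio of pairs of like size was 0.05 for the upstream and 0.09 for the downstream group. Those values include absent pairs at the lowest strength. With absent pairs treated in the same way, the group medians were -0.10 upstream, below its value, and 0.14 downstream, above its value. The pairs listed in both H4 lines had medians of -0.23 upstream and 0.07 downstream, for which no value of pairs of like size listed in both lines was computed.

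**Figure D5:**
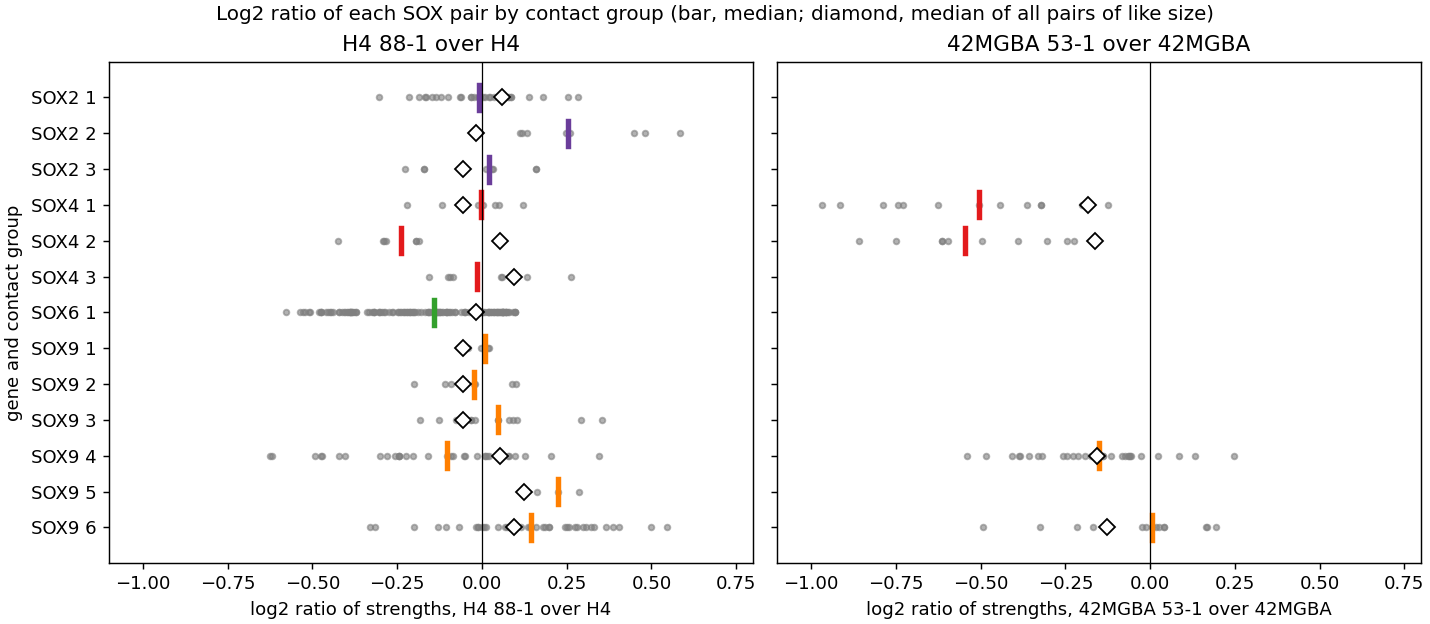
Grey points are the log2 ratios of strength of single SOX pairs, STAG2-corrected over STAG2-mutant (horizontal axis), by gene and contact group (vertical axis, groups numbered along each gene), for the H4 system and the 42MGBA system. Coloured bars are group medians and diamonds the medians of all pairs of like size, with absent pairs set to the lowest listed strength. Both SOX4 groups of 42MGBA lie near -0.5, left of their diamonds, and the 2 large SOX9 groups, numbered 4 (upstream) and 6 (downstream), lie on opposite sides of 0 in the H4 system with these absent pairs included.

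Between systems all called SOX pairs were stronger in the H4 lines. Each list enters both a comparison of genotypes and one of systems, so that these are not independent. H4 and 42MGBA, both STAG2-mutant, had 129 SOX pairs in their merged set. Of these, 12 (9.30%) were called stronger in H4, beside 2.25% of all 149005 merged pairs, and none in 42MGBA, beside 1.73%. The 12 were 6 pairs of SOX2 and 6 of SOX6, from 1 contact group each. H4 88-1 and 42MGBA 53-1, both STAG2-corrected, had 66 SOX pairs in the merged set. Of these, 6 (9.09%) were called stronger in H4 88-1, 4 of SOX2 and 2 of SOX6, beside 2.40% of all 151046 merged pairs, and none in 42MGBA 53-1, beside 1.62%. All the called pairs were absent from the 42MGBA lists, so that they were called against the lowest listed strength. The 13 SOX2 and 75 SOX6 pairs of the first merged set entered through H4 alone, where they were high. Likewise the 11 SOX2 and 41 SOX6 pairs of the second set entered through H4 88-1 alone. Such pairs could be called in only 1 direction, so that the shares called add nothing to the listing. For SOX6 the largest ratios were at least 2.27-fold in H4 over 42MGBA and at least 2.46-fold in H4 88-1 over 42MGBA 53-1. A regression with an intercept lowered the count in H4 from 12 to 4, the z-score of the log2 ratio gave 17, and the z-score of the log2 ratio within bins of like size gave 3.

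SOX9 and SOX4 were listed in both systems, and none of their pairs was called between them. The 36 SOX9 pairs listed in H4 and 42MGBA had a median log2 ratio of 0.17, and the 32 listed in H4 88-1 and 42MGBA 53-1 of 0.14. The 15 SOX4 pairs listed in H4 and 42MGBA had a median log2 ratio of -0.47, that is, they were lower in H4, and the 4 listed in H4 88-1 and 42MGBA 53-1 of 0.19. With absent pairs at the lowest strength, the SOX4 median of the STAG2-corrected lines was 0.17, and 0.038 when centred on chromosome 6.

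Other genes were counted for comparison. Of 11 other SOX genes, 4 had a listed pair (SOX13 with 50 pairs, SOX18 with 9, SOX15 with 3 and SOX17 with 2), but only SOX13 had pairs in a merged set, 18, 11, 16 and 18 in the 4 comparisons. None of these was called, which at a background of 1.61% to 2.45% in each direction says little. Of 18 other genes used as glioma stem cell markers or regulators, 11 had pairs, 628 in all. In the H4 system 13 of their 139 merged pairs were called stronger in H4 88-1, beside 1.94% of all merged pairs. Of the 13, 9 were at HES1, a Notch target with 23 merged pairs, and 4 at CD44, a hyaluronan receptor with 12. Neighbouring pairs can carry the same contact, so that these are not counts of separate contacts. In H4, 1 pair was called stronger, beside 2.17%, at ITGA6, an integrin subunit. None of the 132 merged pairs of these genes was called in the 42MGBA system, beside 1.61% and 2.45% in the 2 directions. None of 149 was called between H4 and 42MGBA, beside 2.25% and 1.73%. Between H4 88-1 and 42MGBA 53-1, 8 of 156 were called stronger in H4 88-1, beside 2.40%, all at HES1. Another 2 were called stronger in 42MGBA 53-1, beside 1.62%, both at ITGA6. These calls make no contrast with the 8 SOX genes. The SOX pairs entered the merged set of the H4 system unequally, 121 being among the 100000 strongest of H4 and 64 among those of H4 88-1.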

How the data were processed

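Hi-C with the Arima Hi-C+ kit was performed on 2 biological replicates of each of 4 lines. According to the submitters' processing notes and the methods of the study, the authors aligned the reads to hg19 with bowtie, assigned unique pairs to anchors of 5 kb, and then ran HiCorr for bias correction and DeepLoop (LoopEnhance) to raise signal over noise. The deposited loop strength is a signal, and the replicates of a line were pooled by the authors into its list. Depth per pair is not given, so that no counting error can be stated. The RNA-seq samples were not analysed here.

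The 8 genes and the comparison lists were chosen with earlier results of these data known. Start sites came from GENCODE release 44 lifted to GRCh37, and no listed anchor ran past a chromosome end of that genome. Sizes are the deposited distance, which in every row equals the bases between the facing ends of the anchors. Ratios used every pair listed in either line, with an absent pair set to the lowest strength of its list, so that ratios against it are bounds. Where a listed strength is below the lowest strength of the other list, the sign of its ratio says nothing. Pairs of like size are those of the same of 20 bins of equal number. Calls used the merged 100000 strongest pairs, with the z-score computed on the whole merged table, and were tested on simulated data. For each gene, the strongest pair of each line and the pair with the largest z-score in size in each comparison were named. Others named here, such as SOX9 groups and link counts, were chosen after their values were seen. Analyses used Python 3.11.15, numpy 2.4.6 and pandas 2.3.3. Alternatives changed the regression, the score, the number of merged pairs, the treatment of absent pairs and the start sites.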

Additional observations from a re-analysis of the deposited data

How the results depend on the processing

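No paired analysis was possible because the replicates of each line were pooled in its list, and for the same reason no replicate could be left out. No SOX pair was called stronger in a STAG2-corrected line under the alternatives, except 1 in H4 88-1 when the z-score of the log2 ratio was taken within 20 bins of size (bins of size, in what follows). The other counts are small and moved with the method. For the 2 pairs stronger in H4 than in H4 88-1, an intercept gave 1, bins of size 0 and merging the 200000 strongest pairs 14. For the 2 pairs stronger in 42MGBA than in 42MGBA 53-1, bins of size gave 0, a 1.5-fold rule 11, merging 200000 pairs 5 and leaving out absent pairs 1. For the 12 pairs stronger in H4 than in 42MGBA, an intercept gave 4, the log2 ratio without bins 17, bins of size 3, a 1.5-fold rule 63, merging 200000 pairs 27, the 5′ end of the gene alone 6 and leaving out absent pairs 0. The 1.5-fold rule also gave 2 pairs stronger in 42MGBA than in H4, where the z-score gave none. For the 6 pairs stronger in H4 88-1 than in 42MGBA 53-1, a 1.5-fold rule gave 49, merging 200000 pairs 14 and leaving out absent pairs 0. The counts of 0 without absent pairs follow from the construction, since all these pairs were absent from the 42MGBA lists. Elsewhere the cause was not tested. The 1.5-fold rule took 10.2% of all merged pairs as stronger in 42MGBA than in 42MGBA 53-1, 26.1% as stronger in 42MGBA than in H4, 11.2% as stronger in H4 than in 42MGBA and 24.5% as stronger in H4 88-1 than in 42MGBA 53-1. The share of SOX pairs listed in the H4 system only was 63.4% of 183 pairs with the 5′ end of each gene alone, which leaves out all SOX6 pairs. It was 80.7% with anchors that overlap a start site and 82.8% among the 100000 strongest pairs. The median log2 ratio of SOX9 in 42MGBA 53-1 over 42MGBA was 0.032 when centred on pairs of like size, and that in H4 88-1 over 42MGBA 53-1, 0.20 over 83 pairs with absent pairs at the lowest strength, was -0.014 when centred on its chromosome. The medians of SOX2 and SOX9 in H4 88-1 over H4, 0.02 as reported, were -0.07 and -0.08 when centred on all pairs. The other gene medians that lay more than 0.1 from 0 kept their sign under each centring and, where pairs were listed in both lines, without absent pairs.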
